A study of Mus musculus with 8 samples.

Results

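The 8 genes described here encode subunits of protein kinase A, the cAMP-dependent kinase, and the A-kinase anchoring proteins that hold it in place. They are the regulatory subunits Prkar1a and Prkar2a, the catalytic subunit Prkaca, and the anchors Akap1, Akap3, Akap4, Akap9 and Akap12. They were selected as members of one pathway, by symbol, at a time when earlier results of these data were known. All 8 are among the 16349 genes of the deposited table. RNA came from spermatids of C57BL/6 mice at 2 stages, round and elongating, labelled wild type (WT) or as a conditional knockout for Carm1, which encodes an arginine methyltransferase. Each of the 4 groups (round WT, round knockout, elongating WT, elongating knockout) has 2 libraries, and each sample was purified from 8 testes by centrifugal elutriation, a separation by cell size and density. Neither the driver of the conditional deletion nor the age of the mice is given in the sources used here. Whether the paired libraries of each group are separate animals is not stated, so p-values cover only the spread among libraries, which may be technical.

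Protein kinase A is a holoenzyme in which a pair of regulatory subunits holds a pair of catalytic subunits inactive until cAMP binds. Type I holoenzymes contain RI subunits such as the product of Prkar1a and are largely soluble, whereas type II holoenzymes contain RII subunits such as that of Prkar2a and are bound tightly by anchoring proteins. In sperm, cAMP made by the soluble adenylyl cyclase activates protein kinase A in the tail. The fibrous sheath, a cytoskeletal sleeve around the tail's principal piece, is built largely from AKAP4 and AKAP3, which also bind the kinase.

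Upstream sequences of these genes are shown first because the study's title names CREM, a transcription factor of spermatids that binds cAMP response elements. RefSeq (GRCm38.p6) promoter windows, cut to the 250 bases before each annotated start, were found for 7 of the 8 genes, 16 windows in all. Akap12 was not matched. Both strands were searched for the full cAMP response element TGACGTCA, its half-site TGACG, which lies inside the full element, and the variant TGATGTCA. The variant, and the search for shared runs, were chosen after the sequences had been seen. The sequences below carry these letters in capitals, 5′ to 3′ on the gene's strand. The Prkar1a sequence stops 29 bases before the start, because the last 28 bases of its window lie in an annotated exon and are not printed. Distances are counted from the start, not from the end of the printed letters. In Akap3 and Akap4 the capitals mark a run shared by both genes. In Prkar1a they mark the full element and an upstream half-site, and in Prkaca the half-sites, which lie on the other strand. Prkar1a, Prkaca and Akap4 have other annotated starts, whose windows are not printed. None of the searched letters occurred before the starts at 83976883 in Prkaca and 7068210 in Akap4. The same held for those at 109649023, 109650542 and 109651342 in Prkar1a. Which start is used in spermatids was not tested.
Akap3 (chr6:126852848-126853097, plus strand): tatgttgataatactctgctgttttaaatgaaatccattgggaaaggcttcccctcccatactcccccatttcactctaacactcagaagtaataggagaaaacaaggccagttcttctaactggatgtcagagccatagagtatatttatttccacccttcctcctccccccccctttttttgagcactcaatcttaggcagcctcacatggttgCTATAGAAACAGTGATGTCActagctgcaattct
Akap4 (chrX:7067265-7067514, plus strand): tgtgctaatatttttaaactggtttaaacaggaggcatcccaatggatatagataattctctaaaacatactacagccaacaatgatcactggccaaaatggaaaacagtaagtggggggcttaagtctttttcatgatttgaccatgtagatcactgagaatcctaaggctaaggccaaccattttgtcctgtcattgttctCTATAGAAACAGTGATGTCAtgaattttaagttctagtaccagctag
Prkar1a (chr11:109650699-109650920, plus strand): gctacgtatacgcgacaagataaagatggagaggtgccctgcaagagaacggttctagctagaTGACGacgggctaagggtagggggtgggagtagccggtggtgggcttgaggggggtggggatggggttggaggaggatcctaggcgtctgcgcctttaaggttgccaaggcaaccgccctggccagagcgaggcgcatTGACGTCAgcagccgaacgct
Prkaca (chr8:83972728-83972977, plus strand): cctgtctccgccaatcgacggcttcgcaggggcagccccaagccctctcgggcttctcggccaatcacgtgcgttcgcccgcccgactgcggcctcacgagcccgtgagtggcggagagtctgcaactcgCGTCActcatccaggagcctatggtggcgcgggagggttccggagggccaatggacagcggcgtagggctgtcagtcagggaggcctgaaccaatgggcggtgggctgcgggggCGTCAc

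The windows of the fibrous sheath genes Akap3 and Akap4 shared an unbroken run of 20 bases, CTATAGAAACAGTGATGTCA, which begins 34 bases before the start of Akap3 and 47 bases before that of Akap4. Its last 8 bases are the variant TGATGTCA, found in 2.93% of the 32851 RefSeq promoter windows of the same length. Across the 100 pairs of windows from different genes of the group, the next longest shared run was 11 bases. Among all RefSeq windows, from 27025 genes, the 20 bases occurred in 2, those of Akap3 and Akap4. The full element occurred in 1 window of the group, that of Prkar1a, 49 bases before the start, and in 1.55% of all windows. Half-sites occurred in 4 windows, of Prkar1a and Prkaca, and in 17.8% of all windows. Overlapping Prkar1a windows hold the same upstream half-site, which is thus counted more than once. By gene, 2 of the 7 had a half-site, beside 19.8% of all genes. These are matches of letters and show no binding.

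Recovered reads ranged from 17190962 to 23526694 per library. Levels below are normalised read counts, meaning reads divided by the authors' size factor, and tests are limma across all 15685 genes tested with Benjamini-Hochberg adjustment, called at an adjusted p under 0.05. Carm1 itself stood at 1649 and 1686 (round) and 4308 and 4534 (elongating) in WT, and at 1174 and 1343 (round) and 8157 and 7993 (elongating) in knockout libraries. Its higher level in elongating knockout cells (log2 fold change 0.87, limma adjusted p = 2.65e-09) goes against the label, so these libraries are called KO-labelled, and directions of the elongating comparison rest on labels that the targeted gene did not bear out. A gene total does not tell whether the deleted exons were lost, and Carm1 shares 1025 exonic bases with Yipf2 on the other strand. The size factors matter for every level: with scaling to total reads instead, the median log2 change over all genes moved from 0.01 to -1.42 between the stages in WT and from -0.07 to -0.61 in the elongating knockout comparison. Values on the total-read scale are therefore given beside the deposited ones, and ratios between genes within a library, which no scaling changes, follow the levels. For Carm1 the total-read scale gave log2 0.31 in elongating cells (limma adjusted p = 7.41e-05), again against the label. In round cells it gave -0.50 (limma adjusted p = 2.67e-06), in the direction of the label.

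Summed levels of marker genes followed the labelled stages. The 7 elongating-spermatid markers, such as the protamines, took 1.29% to 1.34% of reads in round WT libraries, 1.33% to 1.41% where round cells were KO-labelled, 9.77% to 9.78% in elongating WT libraries and 11.5% to 11.6% where elongating cells were KO-labelled. The 10 spermatocyte markers, expressed in the preceding meiotic cells, took 0.248% to 0.249%, 0.278% to 0.286%, 0.0229% to 0.0233% and 0.0123% to 0.0126% in the same order. Hspa2, the most abundant of the 10 in round cells, had mean normalised counts there of 19123 in WT and 25447 in KO-labelled libraries. By total reads 2 of the 10 were called higher and 4 lower in round KO-labelled cells, with a median log2 change of -0.15. The higher round sum therefore does not give the direction of most of this list. The 9 macrophage markers took 0.00116% to 0.00146%, 0.00165% to 0.00180%, 0.0307% to 0.0309% and 0.00914% to 0.00915%. Markers of Sertoli cells, of which 11 were measured, took 0.00467% to 0.00469%, 0.00293% to 0.00302%, 0.0255% to 0.0257% and 0.0121% to 0.0124%. Of these, Fshr had 0 reads in round KO-labelled libraries. The 6 round-spermatid markers took 0.160% in both round WT libraries, then 0.163% to 0.167%, 0.0501% to 0.0519% and 0.0346% to 0.0354%. The 12 peritubular and vascular markers took 0.00374% to 0.00384%, 0.00445% to 0.00473%, 0.00862% to 0.00900% and 0.0100% to 0.0102%. Their sum thus stood higher with the KO label at both stages, while the Sertoli sum stood lower at both. By total reads 3 of the 12 were called higher and 1 lower in round KO-labelled cells, where 2197 and 3060 of all genes were. In elongating ones 4 were called higher and 5 lower, where 1394 and 9854 of all genes were. The sum therefore does not give the direction of most genes of this list. Vwf, among the 12, had mean normalised counts of 131.5 in WT and 233.6 in KO-labelled round cells, and 715.7 and 1679 in elongating cells. The 8 spermatogonial markers took 0.00654% to 0.00672%, 0.00688% to 0.00745%, 0.00325% to 0.00340% and 0.00174% to 0.00180%. The sums of these lists thus differed by stage, and by label except for the elongating-spermatid list in round cells, whose ranges overlapped. The 3 Leydig markers measured took at most 0.000262% of reads, and their ranges overlapped between labels in elongating cells. The part of all these lists in the results below was not tested. In bulk samples, fewer cells of a type and less RNA per cell cannot be told apart.

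**Figure D1:**
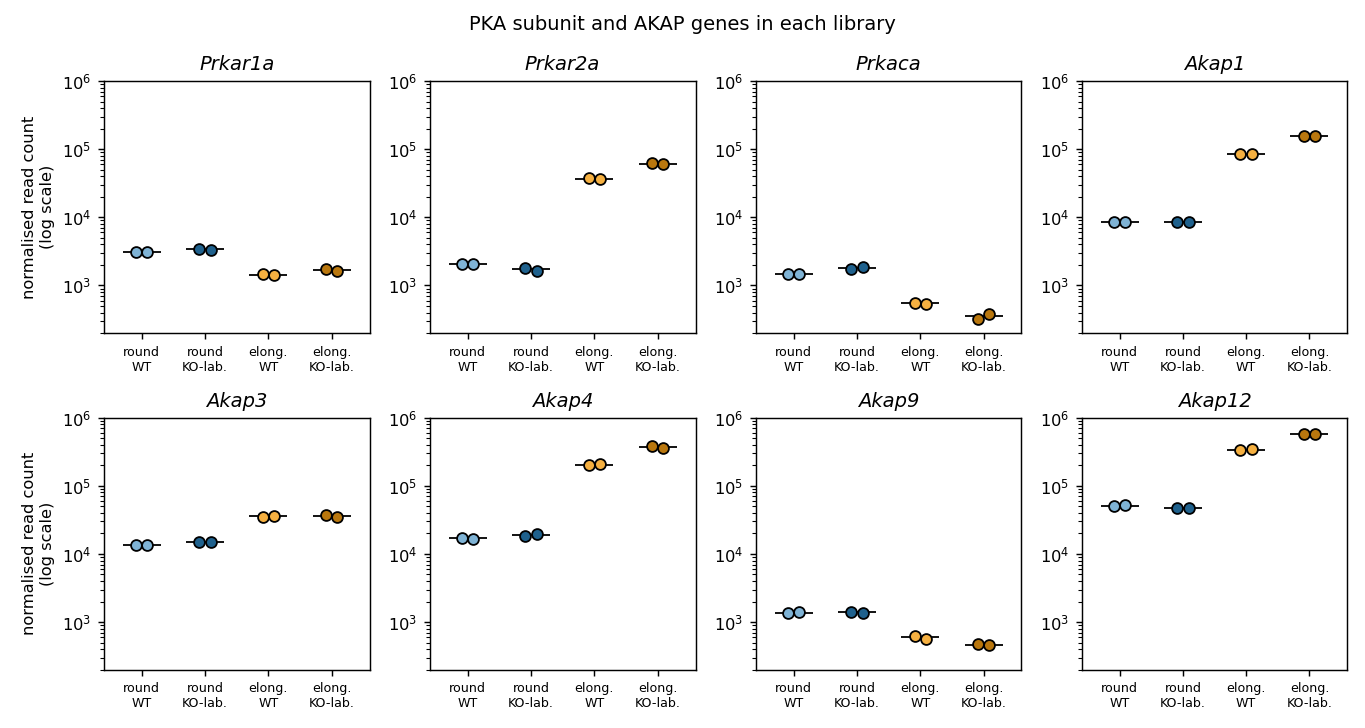
Normalised read count (log scale) of each of the 8 genes in all 8 libraries, with 1 point per library, colours for the 4 groups and a bar at each group's mean. Prkar2a, Akap1, Akap4 and Akap12 sit far higher in elongating than in round libraries, while Prkar1a, Prkaca and Akap9 sit lower.

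Among the regulatory subunits, the RII gene Prkar2a (chr9:108689314-108750436, GRCm38) was low in round and high in elongating spermatids. Its WT libraries stood at 2034 and 2092 (round) and 37204 and 36653 (elongating), and its KO-labelled libraries at 1794 and 1643 (round) and 62339.9 and 60185 (elongating). The 4 groups did not overlap, and every elongating library stood above every round one. In WT the rise from round to elongating cells was 17.9-fold (log2 4.16, SE 0.04, limma adjusted p = 7.11e-20), and in KO-labelled cells it was 35.7-fold (log2 5.16). On the total-read scale these rises were 6.48-fold and 9.29-fold. The KO-labelled effect was a fall in round cells (log2 -0.26, SE 0.04, limma adjusted p = 0.000117) and a rise in elongating cells (log2 0.73, SE 0.04, limma adjusted p = 5.94e-10). On the total-read scale these were -0.35 and 0.17, with the same signs.

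The RI gene Prkar1a (chr11:109649405-109669656) went the other way with stage. Round libraries gave 3048 and 3043 in WT and 3454 and 3298 in KO-labelled cells, and elongating libraries gave 1477 and 1412 in WT against 1720.2 and 1638 under the KO label. Every elongating library stood below every round one, by 2.11-fold in WT (log2 -1.08, SE 0.04, limma adjusted p = 3.99e-12) and 2.01-fold in KO-labelled cells. By total reads the falls were 5.82-fold and 7.71-fold. KO-labelled libraries stood above WT at both stages, by log2 0.15 in round cells (limma adjusted p = 0.0185) and 0.22 in elongating cells (limma adjusted p = 0.000731). The round call ended without round WT replicate 1 (limma adjusted p = 0.0986), without round WT replicate 2 (0.104) or without round KO-labelled replicate 1 (0.146), and on the total-read scale (log2 0.06, 0.324). In elongating cells the total-read scale turned the direction, to log2 -0.35 (limma adjusted p = 3.62e-06).

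The catalytic subunit gene Prkaca (chr8:83972993-83996443), whose product carries the kinase activity, also fell with stage. Its WT libraries stood at 1453 and 1489 (round) and 548 and 538 (elongating), and its KO-labelled libraries at 1743 and 1846 (round) and 324 and 385 (elongating). The 4 groups did not overlap, with the round KO-labelled pair highest and the elongating KO-labelled pair lowest. From round to elongating cells it fell 2.71-fold in WT (log2 -1.44, SE 0.07, limma adjusted p = 4.48e-11) and 5.07-fold in KO-labelled cells, and 7.47-fold and 19.4-fold on the total-read scale. In KO-labelled round cells it rose by log2 0.29 (SE 0.07, limma adjusted p = 0.00648) and in KO-labelled elongating cells it fell by 0.62 on the log2 scale (SE 0.07, limma adjusted p = 3.21e-06). The round call ended without round WT replicate 1 (limma adjusted p = 0.0655), without round KO-labelled replicate 2 (0.0768) and on the total-read scale (log2 0.20, 0.0522). The elongating fall was larger on the total-read scale, at log2 -1.18.

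Of the fibrous sheath anchors, Akap4 (chrX:7067519-7078609), the major sheath protein gene, rose strongly with stage. Round libraries gave 16967 and 16848 in WT and 18518 and 19825 in KO-labelled cells, and elongating libraries gave 200875 and 207458 in WT against 384690 and 364376 under the KO label. The groups did not overlap at either stage, and KO-labelled libraries were the higher ones at both. The rise from round to elongating cells was 12.1-fold in WT (log2 3.59, SE 0.03, limma adjusted p = 6.5e-20) and 19.5-fold in KO-labelled cells, and 4.37-fold and 5.09-fold on the total-read scale. The KO-labelled effect was log2 0.18 in round cells (SE 0.03, limma adjusted p = 0.00077) and 0.88 in elongating cells (SE 0.03, limma adjusted p = 1.95e-11). On the total-read scale these were 0.09 and 0.31, and both passed the test (limma adjusted p = 0.0231 and 1.37e-07).

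Akap3 (chr6:126853098-126874308), the other sheath anchor and the holder of the shared 20 bases printed above, changed less. Its WT libraries stood at 13654 and 13557 (round) and 34976 and 36199 (elongating), and its KO-labelled libraries at 14940.3 and 15213 (round) and 36934 and 34989 (elongating). The round groups did not overlap and the elongating groups did. The rise from round to elongating cells was 2.62-fold in WT (log2 1.39, SE 0.03, limma adjusted p = 1.81e-15), but on the total-read scale the direction turned, to log2 -0.08 in WT and -0.69 in KO-labelled cells. The round KO-labelled effect was log2 0.15 (SE 0.03, limma adjusted p = 0.00181), and it did not pass on the total-read scale (log2 0.06, limma adjusted p = 0.0992). In elongating cells the effect was log2 0.01 (95% interval -0.05 to 0.08, limma adjusted p = 0.706) as deposited and -0.55 (limma adjusted p = 8.74e-11) on the total-read scale.

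Akap1 (chr11:88830792-88864586, minus strand) encodes the anchor of the outer mitochondrial membrane. Round libraries gave 8401 and 8432 in WT and 8440.2 and 8445 in KO-labelled cells, and elongating libraries gave 83881 and 86240.2 in WT against 157872 and 158572 under the KO label. All 4 round libraries lay close together, whereas the elongating KO-labelled pair stood far above the elongating WT pair. The rise with stage was 10.1-fold in WT (log2 3.34, SE 0.02, limma adjusted p = 7.89e-21) and 18.7-fold in KO-labelled cells, and 3.66-fold and 4.88-fold on the total-read scale. The round KO-labelled effect was log2 0.00 (95% interval -0.05 to 0.06, limma adjusted p = 0.92), and -0.09 (limma adjusted p = 0.0106) on the total-read scale. The elongating effect was log2 0.90 (SE 0.02, limma adjusted p = 1.37e-12), and 0.33 on the total-read scale.

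Akap12 (chr10:4266380-4359470), a scaffold gene whose product, also called gravin binds protein kinase A near the plasma membrane, was also higher in elongating cells. Its WT libraries stood at 50130.1 and 51492 (round) and 339163 and 343592 (elongating), and its KO-labelled libraries at 47736 and 47120.2 (round) and 570403 and 567844 (elongating). Its share of reads, not corrected for length, ranged from 0.404% in a round KO-labelled library to 1.28% in an elongating KO-labelled one. By reads it was among the first 7 genes in every library. From round to elongating cells it rose 6.72-fold in WT (log2 2.75, SE 0.02, limma adjusted p = 1.56e-20) and further in KO-labelled cells (log2 3.58), and 2.43-fold and 3.12-fold on the total-read scale. In KO-labelled round cells it fell by 0.10 on the log2 scale (SE 0.02, limma adjusted p = 0.00319), a call that ended without round WT replicate 2 (0.053). In KO-labelled elongating cells it rose by log2 0.74 (SE 0.02, limma adjusted p = 2.59e-12), and by 0.17 on the total-read scale.

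Akap9 (chr5:3928054-4081310), whose large product anchors the kinase at the Golgi and centrosome, was the lowest of the anchors per exonic length and fell with stage. Round libraries gave 1357 and 1384 in WT and 1399.6 and 1369.7 in KO-labelled cells, and elongating libraries gave 624 and 571 in WT against 471 and 458 under the KO label. The round groups overlapped, and the elongating KO-labelled pair lay below the elongating WT pair. The fall with stage was 2.29-fold in WT (log2 -1.20, SE 0.06, limma adjusted p = 2.89e-11) and 2.98-fold in KO-labelled cells, and 6.33-fold and 11.4-fold on the total-read scale. The KO-labelled effect was log2 0.01 in round cells (95% interval -0.11 to 0.14, limma adjusted p = 0.885) and -0.36 in elongating cells (SE 0.06, limma adjusted p = 8.61e-05), where the total-read scale gave -0.92. Akap9 shares 166 of its 21350 exonic bases with Cyp51 on the other strand, and the library kit does not mark strand, so reads there cannot be assigned. The other 7 genes share no exonic base with another annotated gene.

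Between the stages, all 8 genes were thus called in both genotypes. In WT 5 rose (Prkar2a, Akap1, Akap3, Akap4 and Akap12), against a background of 41.7% of all tested genes called higher, and 3 fell (Prkar1a, Prkaca and Akap9), against 40.2% called lower. In KO-labelled cells the counts were also 5 and 3, with 42.6% of all genes higher and 41.8% lower. Their median log2 change in WT was 2.07, beside 0.01 over all genes tested. By total reads, where 3067 genes rose and 10799 fell in WT against 6548 and 6300 as deposited, 4 of the 8 rose and 4 fell, since Akap3 changed sign. The summed share of reads of the 8 genes was 0.887% and 0.895% in round WT and 2.32% and 2.34% in elongating WT libraries, and 0.842% and 0.846% against 2.69% and 2.68% in KO-labelled ones. The elongating libraries therefore spent a larger share of reads on these genes, and Akap1, Akap4 and Akap12, all among the 50 most abundant genes, took most of it.

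In the knockout comparison within round cells, 4 of the 8 genes rose (Prkar1a, Prkaca, Akap3 and Akap4), where 19.4% of all genes were called higher, and 2 fell (Prkar2a and Akap12), where 12.6% were called lower. Their median log2 change was 0.08, beside 0.03 over all genes, and -0.01, beside -0.06, with total-read scaling. As deposited the largest of these changes was the log2 0.29 of Prkaca, and by total reads it was the -0.35 of Prkar2a. With total-read scaling 1 gene, Akap4, rose and 3 fell (Prkar2a, Akap1 and Akap12), where 2197 genes rose and 3060 fell in all against 3041 and 1977 as deposited. Without round WT replicate 1 the number of rises was 2, and without round WT replicate 2 the number of falls was 1.

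Within elongating cells, 5 of the 8 genes rose in KO-labelled libraries (Prkar1a, Prkar2a, Akap1, Akap4 and Akap12), where 27.3% of all genes were called higher, and 2 fell (Prkaca and Akap9), where 27.7% were called lower. Their median log2 change was 0.47, beside -0.07 over all genes, and it turned to -0.09, beside -0.61, with total-read scaling. The rises of Akap1, Akap4, Akap12 and Prkar2a lay between log2 0.73 and 0.90, and that of Prkar1a was 0.22. With total-read scaling 4 rose and 4 fell, where 1394 genes rose and 9854 fell in all against 4279 and 4348 as deposited. The elongating-spermatid markers, given above, also took a larger summed share of reads in these KO-labelled libraries. As deposited all 7 of them were called higher, and by total reads 5 were.

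The difference between the elongating and the round knockout effects was tested as an interaction. It passed in 7 of the 8 genes: 4 had the more positive effect in elongating cells, against 19.3% of all genes, and 3 the more negative one, against 17.5%. The difference was log2 0.99 for Prkar2a (SE 0.06, limma adjusted p = 6.71e-09) and -0.91 for Prkaca (SE 0.10, limma adjusted p = 4.77e-06). It was 0.89 for Akap1, 0.84 for Akap12 and 0.69 for Akap4, and -0.38 for Akap9 (limma adjusted p = 0.00201). For Akap3 it was -0.13 (limma adjusted p = 0.0256), a call that ended in 5 of 8 fits without 1 library: without round WT replicate 1 (0.0619), round WT replicate 2 (0.0823), round KO-labelled replicate 2 (0.0593), elongating WT replicate 2 (0.139) or elongating KO-labelled replicate 2 (0.119). For Prkar1a, the other regulatory subunit gene, it was 0.07 and did not pass (95% interval -0.06 to 0.20, limma adjusted p = 0.427). By total reads the Prkar1a difference was -0.41 (limma adjusted p = 5.31e-05), the same direction as Prkaca, at -1.38. The others kept their sign on that scale but changed in size, to 0.52 for Prkar2a, 0.42 for Akap1, 0.36 for Akap12, 0.22 for Akap4, -0.61 for Akap3 and -0.85 for Akap9.

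**Figure D2:**
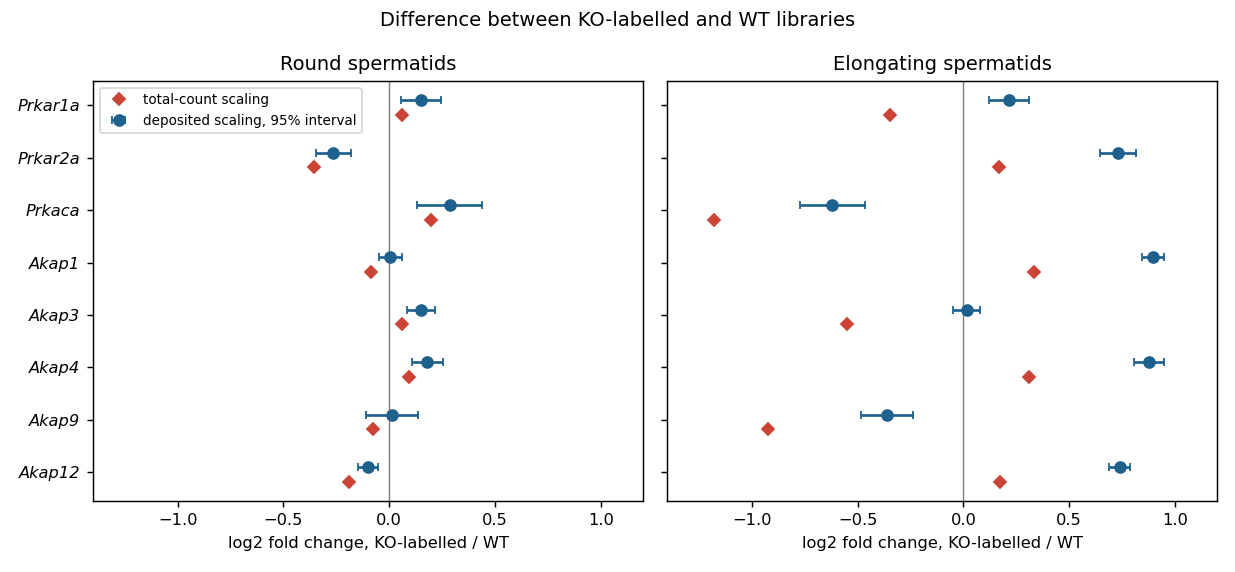
Log2 fold change of KO-labelled against WT libraries for each gene, in round and in elongating spermatids, on the deposited scale (circles, with bars for the 95% interval of the limma fit) and on the total-read scale (diamonds). The elongating effects of Akap1, Akap4, Akap12 and Prkar2a lie above 0 on both scales, those of Prkaca and Akap9 below 0 on both, and those of Prkar1a and Akap3 change side with the scale.

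Ratios between genes within a library show how the makeup of the group differed, whatever the scaling. Reads were divided by each gene's exonic length before the ratio was taken, and ratios are given in the order round WT, round KO-labelled, elongating WT and elongating KO-labelled. The ratio of the RII gene Prkar2a to the RI gene Prkar1a was 0.452 and 0.466, then 0.352 and 0.338, then 17.1 and 17.6, then 24.6 and 24.9. Round spermatids therefore held less RII than RI transcript per length, and elongating spermatids held more in all 4 libraries. KO-labelled libraries stood below WT in round cells and above WT in elongating cells, with no overlap.

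Regulatory transcript also rose relative to catalytic transcript. The ratio of Prkar2a to Prkaca was 0.546 and 0.548, then 0.402 and 0.347, then 26.5 and 26.6, then 75.1 and 61.1. The ratio of Prkar1a to Prkaca moved less, from 1.21 and 1.18, then 1.14 and 1.03, to 1.55 and 1.51 and then 3.06 and 2.45. In elongating cells both ratios were higher in KO-labelled than in WT libraries, and in round cells both were lower, without overlap. These ratios are given as values and were not tested.

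Among the anchors, the ratio of Akap4 to Akap3, the pair of fibrous sheath genes, was 1.29 in both round WT libraries and 1.29 and 1.36 in round KO-labelled ones. It was 5.98 and 5.97 in elongating WT libraries, and 10.85 in both elongating KO-labelled ones. The sheath genes thus stood near the same level in round cells and apart in elongating cells, most in KO-labelled ones. The ratio of Akap4 to its binding partner Prkar2a went from 17.6 and 17.0 to 11.4 and 11.9 in WT, and from 21.7 and 25.4 to 13.0 and 12.8 in KO-labelled libraries. The ratio of Akap12 to Akap1 fell from 4.06 and 4.15 to 2.75 and 2.71 in WT and from 3.84 and 3.79 to 2.46 and 2.43 in KO-labelled libraries.

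**Figure D3:**
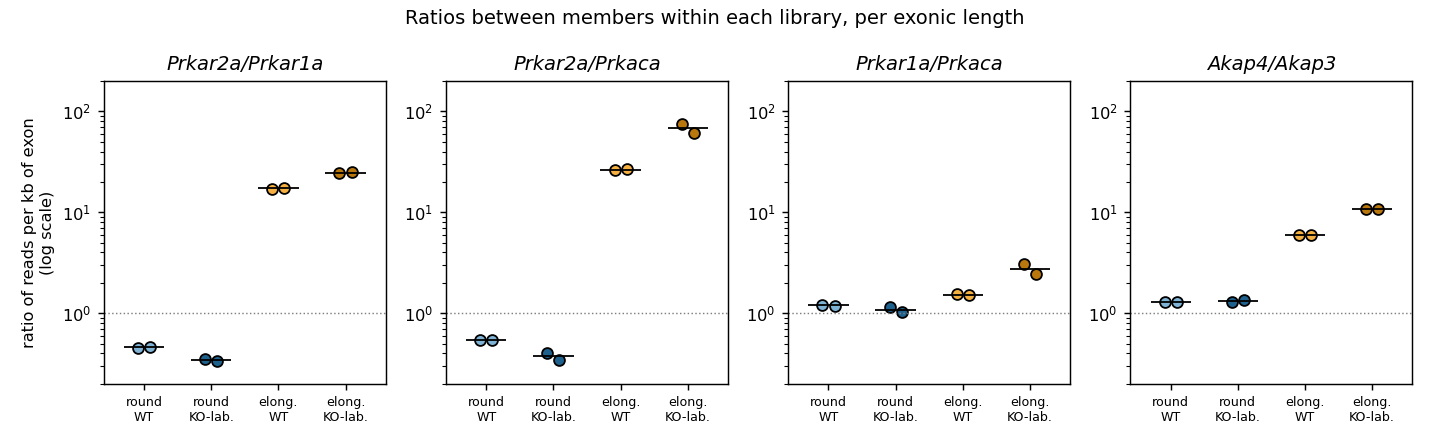
Ratio of reads per kb of exon (log scale) between pairs of the genes within each library, 1 point per library, for the 4 groups, with a bar at each group's mean and a dotted line at 1. The ratios of Prkar2a to Prkar1a and to Prkaca lie below 1 in round and above 10 in elongating libraries, and the ratio of Akap4 to Akap3 is near 1.3 in round and above 5 in elongating libraries.

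Levels per kilobase of exon give the order of the genes within a group. In round WT the normalised count per kilobase was 7864 for Akap12, 5585 for Akap4, 4315 for Akap3, 1917 for Akap1, 705 for Prkar1a, 591 for Prkaca, 324 for Prkar2a and 64.2 for Akap9. Round KO-labelled cells had the same order. In elongating WT the order was Akap4 at 67450, Akap12 at 52840, Akap1 at 19380, Akap3 at 11290, Prkar2a at 5790, Prkar1a at 334, Prkaca at 218 and Akap9 at 28.0, so Prkar2a passed both other subunit genes and Akap1 passed Akap3. No library of a gene overlapped those of its neighbour in these orders, and the closest neighbours were Prkar1a and Prkaca in round KO-labelled cells. Elongating KO-labelled cells kept that order, except that with the length of the longest coding transcript in place of all exons Prkar2a, at 12340, stood above Akap3, at 11410.

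For each gene, the most similar profiles among the other tested genes were found by the root mean square difference of log2 levels over the 8 libraries, after each gene's own mean was removed. The rule took the 3 nearest. The first was 1110004E09Rik for Prkar1a (0.037), Mlkl for Prkar2a (0.091), Kdm2b for Prkaca (0.064), Slfnl1 for Akap1 (0.039), Rps18 for Akap3 (0.059), Actl11 for Akap4 (0.042), Tex24 for Akap9 (0.040) and Luzp1 for Akap12 (0.040). The next in order were Pdzd9 and Ccny for Prkar1a, Gm5893 and Gpi1 for Prkar2a, Rhbdd3 and Ndufa6 for Prkaca, Rangap1 and 1110017D15Rik for Akap1, Mprip and Rnf4 for Akap3, Syce2 and Kif2c for Akap4, Usp37 and Lrrc36 for Akap9, and Lemd1 and Odf2 for Akap12. Prkar2a had the most distant nearest profile of the 8. Within the group the closest pair was Akap1 and Akap4, 0.106 apart, followed by Prkar1a and Akap9 at 0.272 and Prkaca and Akap9 at 0.296. The most distant pair was Prkar2a and Prkaca, 3.32 apart. Akap3 and Akap4, despite the shared upstream run, were not among the closest pairs.

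The rest of the pathway was described with lists of related genes, whose counts are to be read against the shares of all genes given above for each comparison, and the names behind a count of at most 5 that are not the largest rise or fall were added after their values were seen. Of the 4 other kinase subunit genes, Prkar1b, a second RI gene, rose in both KO-labelled stages (log2 0.42, limma adjusted p = 0.0427 in round cells, and 0.94, 7.94e-05 in elongating cells, where the total-read scale gave 0.38). The round call ended on the total-read scale (limma adjusted p = 0.0884) and without any of 6 libraries: round WT replicate 1 (0.0823) or 2 (0.243), round KO-labelled replicate 1 (0.0706) or 2 (0.258), and elongating WT replicate 1 (0.0636) or 2 (0.0639). Prkar1b measured 146 and 131 in round WT libraries, 174 and 198 in the KO-labelled round ones, 148 and 157 in elongating WT libraries and 355 and 243 in the KO-labelled elongating ones. In elongating KO-labelled cells 2 of the 4 fell, Prkar2b by 0.70 on the log2 scale (limma adjusted p = 0.0124) and Prkacb by 0.59 (limma adjusted p = 0.0264), and -1.21 and -1.12 on the total-read scale. The Prkar2b call ended without elongating WT replicate 1 (0.0749), in the fit of the 4 elongating libraries (0.0789), with edgeR (adjusted p = 0.0506 with TMM and 0.0633 with the authors' size factors) and with DESeq2 (0.163). The Prkacb call ended without elongating WT replicate 1 (0.0663) or 2 (0.0978) and without elongating KO-labelled replicate 2 (0.136), in the 4-library fit (0.0557), with edgeR on the authors' size factors (0.0572) and with DESeq2 (0.163). Prkar2b stood at 40.0 and 33.2 in elongating WT libraries against 23.3 and 20.7.

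The 3 inhibitor genes encode peptides that block free catalytic subunits. In elongating KO-labelled cells 2 of 3 rose, Pkib by log2 0.70 (SE 0.04, limma adjusted p = 3.87e-10) and Pkig by 0.61 (limma adjusted p = 1.03e-08). On the total-read scale Pkib was at 0.14 (limma adjusted p = 0.00226) and Pkig at 0.05 (0.313). Pkib went from 1275 and 1326 in round WT to 8498 and 8494 in elongating WT libraries, and stood at 13969.5 and 13656 in the KO-labelled elongating ones. In round cells Pkig rose by log2 0.15 (limma adjusted p = 0.0127), a call that ended without round WT replicate 2 (0.117), without round KO-labelled replicate 2 (0.105) and on the total-read scale (0.266). Pkia fell there by 2.12 on the log2 scale, from 18 and 17 reads to 2 and 4.

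Of the 23 other anchoring genes that were tested, 3 rose (Akap6, Arfgef2 and Rsph3b) and 6 fell in round KO-labelled cells, and 8 rose and 6 fell in elongating KO-labelled cells. Of all genes 19.4% rose and 12.6% fell in round cells and 27.3% and 27.7% in elongating cells. Scaled to total reads, the elongating counts were 2 and 16, where 1394 genes rose and 9854 fell in all. Akap6, an anchor of the nuclear envelope, rose by log2 0.47 in round cells (limma adjusted p = 0.0101; 0.0741 without round WT replicate 1 and 0.115 without round KO-labelled replicate 1) and by 1.96 in elongating cells (limma adjusted p = 4.93e-09), and 1.39 on the total-read scale. In elongating cells it measured 74.8 and 77.9 in WT against 322 and 279 in KO-labelled libraries. Pde4dip, encoding the centrosomal and Golgi protein myomegalin, fell at both stages, by 0.67 and 1.14 on the log2 scale (limma adjusted p = 6.27e-07 and 2.63e-10), and by 0.76 and 1.70 with total-read scaling.

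Of 8 tested partners in the fibrous sheath or with an RII-like domain, 4 rose (Ropn1l, Fscb, Gapdhs and Tcp11) and 1 fell in round KO-labelled cells, and 6 rose and 2 fell (Ropn1l and Fsip1) in elongating ones. Fscb, which encodes a calcium-binding sheath protein, rose by log2 0.35 in round and 0.87 in elongating cells (limma adjusted p = 4.32e-07 and 4.89e-12), and Gapdhs, the sheath-bound glycolytic enzyme gene, by 0.95 in elongating cells. By total reads the elongating rises were 0.31 for Fscb and 0.39 for Gapdhs. Fsip1, a sheath-interacting protein gene, fell by 0.21 and 1.14 on the log2 scale (limma adjusted p = 0.0104 and 2.85e-10), and its round call ended without round WT replicate 1 (0.0775), round WT replicate 2 (0.0859) or round KO-labelled replicate 2 (0.0774). With total-read scaling 2 of the 8 rose and 5 fell in elongating cells, where 1394 genes rose and 9854 fell in all. With stage in WT, Gapdhs rose by log2 3.99 and Fscb by 2.94, while Fsip1 fell by 2.43, and by total reads the values were 2.53, 1.47 and -3.90.

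Genes of cAMP synthesis and removal moved in both directions. Of 9 tested synthesis genes, 2 rose (Adcy7 and Gnas) and 2 fell (Adcy6 and Adcy10) in round KO-labelled cells, and 3 rose (Adcy6, Adcy10 and Gnas) and 0 fell in elongating ones, against 0 and 7 on the total-read scale. Over all genes that scale gave 1394 rises and 9854 falls in elongating cells. Adcy10 encodes the soluble adenylyl cyclase of sperm. Its WT libraries stood at 5615 and 5769 (round) and 16296 and 16677 (elongating), and its KO-labelled libraries at 4564 and 4400.4 (round) and 18818 and 18120.4 (elongating). The effects were log2 -0.34 in round cells (limma adjusted p = 1.97e-06) and 0.16 in elongating cells (limma adjusted p = 0.000683), and the latter turned to -0.40 on the total-read scale. Adcy7 rose by log2 0.99 in round cells (limma adjusted p = 0.00122), with 19 and 28 reads in WT libraries against 45 and 54. Adcy6 fell by 0.87 in round cells on the log2 scale and rose by 0.48 in elongating cells (limma adjusted p = 0.00112 and 0.0263). The elongating Adcy6 call ended without elongating WT replicate 2 (0.21) and without elongating KO-labelled replicate 1 (0.135), in the 4-library fit (0.0538), with edgeR and TMM (0.0654) and with DESeq2 (0.146). Its value was -0.08 on the total-read scale.

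Of 15 tested cAMP phosphodiesterase genes, whose products degrade cAMP, 3 rose (Pde4a, Pde4b and Pde8b) and 2 fell (Pde1c and Pde2a) in round KO-labelled cells. In elongating ones 4 rose (Pde1a, Pde1b, Pde7a and Pde11a) and 5 fell (Pde1c, Pde2a, Pde3b, Pde4a and Pde8a). On the total-read scale 1 rose and 8 fell, where 1394 genes rose and 9854 fell in all. In round cells Pde8b rose by log2 1.27 (limma adjusted p = 0.00114) and Pde2a fell by 0.92 (limma adjusted p = 0.000135). In elongating cells Pde4a fell by 0.69 on the log2 scale (limma adjusted p = 1.21e-07), from 844 and 893 to 560.5 and 517, and by 1.25 with total-read scaling. Pde11a rose there by log2 1.91 (limma adjusted p = 0.0112) on few reads, 4 and 8 in WT libraries against 14 and 20, and the call ended without elongating WT replicate 1 (0.118), without elongating KO-labelled replicate 2 (0.0575) and on the total-read scale (0.0673). Of the 4 tested genes of other cAMP effectors, in elongating cells 1 rose (Rapgef4) and 3 fell (Rapgef3, Cnbd2 and Slc9c1). The Epac genes, encoding exchange factors activated by cAMP, had log2 fold changes of 0.75 for Rapgef4 and -0.80 for Rapgef3 in elongating cells. Both passed limma (adjusted p = 0.0341 and 0.0339), and neither passed DESeq2 (0.128 and 0.15). The Rapgef4 call also ended without elongating WT replicate 2 (0.243), elongating KO-labelled replicate 1 (0.0809) or replicate 2 (0.0668), on the total-read scale (log2 0.20, 0.537) and with sizes without the 50 most abundant genes (0.26, 0.424). That of Rapgef3 ended without elongating WT replicate 1 (0.17) or elongating KO-labelled replicate 2 (0.0887), and its total-read value was -1.31. In round cells Rapgef4 was at log2 -0.14 and Rapgef3 at 0.67, and neither passed (limma adjusted p = 0.758 and 0.105).

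Between the stages in WT, where 41.7% of all genes rose and 40.2% fell, the lists had the following counts, and differences between lists were not tested. Of the 23 other anchoring genes 7 rose and 13 fell (median log2 change -0.50), of the 8 sheath and RII-like partners 6 rose and 2 fell (median 1.99), and of the 9 synthesis genes 6 rose and 3 fell (median 1.41), beside a median of 0.01 over all genes tested. On the total-read scale these counts were 0 and 20, 5 and 3, and 4 and 3. The phosphodiesterase genes numbered 7 rises and 6 falls of 15, and 0 and 9 on the total-read scale.

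**Figure D4:**
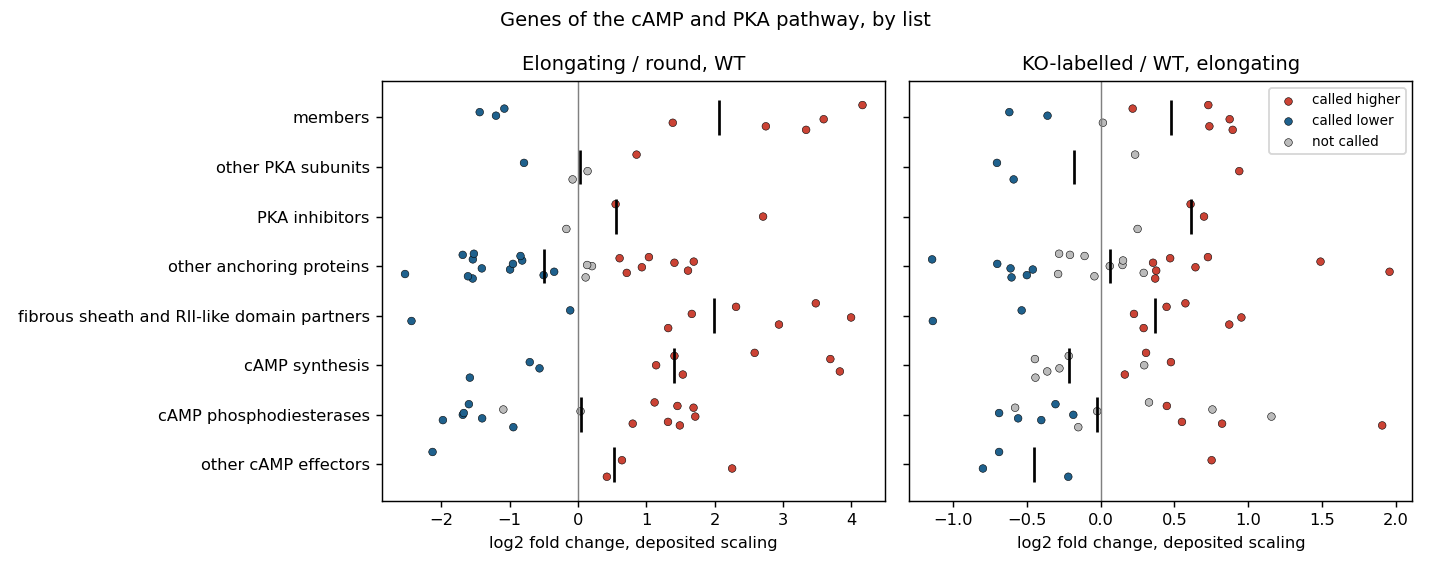
Log2 fold change on the deposited scale for every tested gene of the pathway lists and for the 8 genes themselves (top line, members), with 1 point per gene, coloured by its call, and a black bar at each list's median. The left panel compares elongating with round WT cells, where the sheath partners have a median of 1.99, and the right panel compares KO-labelled with WT elongating cells, where Akap6 (1.96) and Pde11a (1.91) are the highest points.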

How the data were processed

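Poly A RNA of round and elongating mouse spermatids was measured in 8 libraries, in 4 groups of 2, with a TruSeq kit per the labels' protocols, which leaves strand unmarked. The submitters' processing notes list DESeq 1.16.0, HTSeq 0.6.0, TopHat2 2.0.10 and CASAVA 1.8.2, with mm10 and GRCm38. Not given in the sources used here: their roles, the annotation and the strand setting. The deposited values are a normalized signal per gene: by their steps, whole reads over the authors' size factor, recovered as whole for 100% of values at a tolerance of 1e-06. Libraries of a group differed by more than sampling noise (chi-square per gene 1.39 to 2.39).

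Tests used limma 3.58.1 (R 4.3.3), empirical Bayes with trend, on log2(value + 1), a scale that understates changes of low genes. A gene was tested where 2 or more libraries reached a value of 10, which held for 15685 of 16349, all 8 of the described genes among them. One model over all 8 libraries had 4 group means, leaving 4 residual degrees of freedom, and tests were two-sided. The test was checked on simulated data. Alternatives were a pseudocount of 5, no filter, total-count scaling, library sizes without the 50 most abundant genes, TMM, edgeR 4.0.16 and DESeq2 1.42.0 on recovered reads, the replicate number as a block, the 4 libraries of a contrast alone, and each library left out. Where an arm keeps 1 library, it is assumed to vary like the other groups.

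The genes and lists were chosen with earlier results of these data known. Named genes were the 8, Carm1, the called gene with the largest rise and fall of each list in each knockout comparison, others a sentence needed, and the nearest profiles. Comparisons share libraries: the stage and knockout contrasts use the same groups. Positions and lengths are from GENCODE M21 (GRCm38), and promoters from RefSeq (GRCm38.p6).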

Additional observations from a re-analysis of the deposited data

Results flagged for a closer look

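In 7 genes the knockout effect in elongating spermatids differed from that in round spermatids, by the interaction test of limma over all genes. The elongating effect was the more positive by log2 0.99 in Prkar2a (adjusted p = 6.71e-09), 0.89 in Akap1 (9.01e-10), 0.84 in Akap12 (5.27e-10) and 0.69 in Akap4 (3.68e-08). It was the more negative in Prkaca, at log2 -0.91 (limma adjusted p = 4.77e-06), Akap9, at -0.38 (0.00201), and Akap3, at -0.13 (0.0256). The Akap3 call did not hold in every fit without 1 library, as given above. By total reads 4 of the 8 genes passed with the more positive effect and 4 with the more negative, where 858 and 7071 of all genes did. The latter 4 included Prkar1a, at log2 -0.41 (limma adjusted p = 5.31e-05). In Prkar2a and Akap12 the effect was negative in round and positive in elongating cells, and in Prkaca the reverse. The round calls of Akap12 and Prkaca did not hold in every fit without 1 library, and that of Prkaca also ended on the total-read scale, as given above. The Carm1 level goes against the label in elongating cells, as described above.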

How the results depend on the processing

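Over the 8 genes and 5 comparisons, 40 results, the pseudocount of 5, no filter, TMM, edgeR with either scaling, DESeq2 and the replicate block changed 0 calls, and the fit of 4 libraries changed 0 of 32. Same-numbered libraries of different groups did not deviate together (correlations -0.095 to 0.032). Each group gives only the difference between its 2 libraries, so this cannot tell whether the numbers mark shared animals or preparations. With the replicate block Prkar1a in round cells kept log2 0.15 (limma adjusted p = 0.017).

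Scaling mattered most. Total-count scaling turned the sign of 6 results: Akap1 in round cells (-0.085), Prkar1a (-0.35) and Akap3 (-0.55) in elongating cells, the interaction of Prkar1a (-0.41), and Akap3 with stage (-0.0798 in WT, -0.69 in KO-labelled). Of these, Akap1 in round cells, Akap3 in elongating cells and the interaction of Prkar1a had not passed as deposited. Library sizes without the 50 most abundant genes turned the sign of 5 of the 6, to -0.0829, -0.29, -0.49, -0.35 and -0.21 (the last in KO-labelled). The 2 scalings also turned the sign of Adcy6 and Adcy10 in elongating cells, to -0.08 and -0.40, or -0.0215 and -0.34. The Adcy6 values did not pass (limma adjusted p = 0.677 and 0.914). With either scaling, 1 gene was called higher in round cells, not 4, and 4 lower in elongating cells, not 2. The cause was not tested.

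Without 1 library, rises in round cells numbered 2 to 4 and falls 1 to 2; falls in elongating cells stayed at 2. Of the 40 results, 3 were lost without round WT replicate 1, 3 without replicate 2, 1 and 2 without round KO-labelled replicates 1 and 2, and 1 each without replicate 2 of the elongating groups.

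Over all genes, falls in round cells (1977) numbered 3060 with total-count scaling, 3002 without the top 50, 3163 and 3168 with edgeR, 3075 with 4 libraries, and 1239 and 1182 without round WT replicate 1 or 2. In elongating cells DESeq2 gave 2760 falls, not 4348, and sizes without the top 50 gave 1645 rises and 9308 falls. Interaction calls were 858 and 7071, or 1059 and 6411; stage calls in WT 3848 and 9739 without the top 50, and in KO-labelled cells 2617 and 11422, or 3396 and 10393. With 2 libraries per group precision is limited, and for genes of 20 reads or fewer per library, such as Pkia and Pde11a, counting error is large.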
